A study of Mus musculus with 24 samples.

Results

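Mouse hearts carrying the MuRF1 Tg+ transgene were compared with wild-type hearts after ischemia-reperfusion (I/R) injury, in the piece of heart below the ligation of the left anterior descending (LAD) coronary artery. The comparison was made up of the 3 Tg+ and the 3 wild-type arrays so labelled, 6 of the 24 arrays of the study, and all genes that could be measured on them. Of the 27666 genes or unnamed transcripts on the array, 11418 were bright enough to be tested. I/R blocks an artery for a time and then lets blood back in, and the muscle below the ligation is the part that loses its supply. All mice were 12 to 16 weeks old. The wild-type group was MuRF1+/+, strain-matched to the Tg+ group, and both groups had I/R surgery. The study also held sham-operated hearts of both genotypes, cut at the place where the ligation would have been, and the piece above the ligation of every heart, with 3 hearts for each genotype and surgery. The 2 pieces of a heart are not independent animals. The promoter of the transgene, the length of the ischemia and the time of harvest are not given in the sources used here.

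Heart RNA carried the dye Cy5, and a reference RNA from pooled whole pups at postnatal day 1 carried Cy3. A value is therefore the log2 ratio of heart to reference, 0 means equal to the reference, and a difference is Tg+ minus wild type on that scale. A gene was called when limma's moderated test, with Benjamini-Hochberg adjustment over all 11418 features, gave an adjusted p under 0.05. In pieces of tissue, fewer cells of a type and less RNA per cell cannot be told apart.

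MuRF1, encoded by Trim63, is a ubiquitin ligase of striated muscle that sits on the sarcomere. It marks sarcomere proteins and muscle creatine kinase for breakdown by the proteasome. The heart draws most of its ATP from mitochondria, where fatty acids, pyruvate and ketones are fed into the tricarboxylic acid (TCA) cycle and the electrons released pass to the respiratory chain.

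The arrays did not carry equal signal. The Cy5 channel was well above background at 9.9%, 38.3% and 37.9% of the spots of wild-type replicates 1, 2 and 3, and at 28.3%, 13.5% and 20.1% of the spots of Tg+ replicates 1, 2 and 3. Wild-type replicate 1 and Tg+ replicates 2 and 3 lay under 25% and are called the weak arrays here, as were 2 wild-type arrays from above the ligation. On the whole array, Tg+ replicate 1 correlated more closely with wild-type replicates 2 and 3 (Pearson's r of 0.956 and 0.942 across genes) than with Tg+ replicates 2 and 3 (0.790 and 0.842), genes not being independent replicates, and wild-type replicate 1 correlated at 0.858 with Tg+ replicate 2 against 0.687 and 0.676 with the other 2 wild-type arrays. Tg+ replicate 3 correlated at 0.779 with wild-type replicate 1 and at 0.757 and 0.730 with wild-type replicates 2 and 3. Across the 6 arrays, closeness therefore did not follow the labels. For this reason leading differences are also given within the arrays of stronger signal (Tg+ replicate 1 minus the mean of wild-type replicates 2 and 3) and within the weak arrays (mean of Tg+ replicates 2 and 3 minus wild-type replicate 1). No slide held arrays of both groups, so slide and genotype cannot be told apart within these 6 arrays, and with slide as a fixed block over all 24 arrays 0 features were called. In that fit all 316 features called below kept their sign; the difference was -1.33 for Pdhb, -1.32 for Got1, 1.86 for Malat1 and -0.88 for Mpc1.

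Trim63 itself was not higher in Tg+. Its log2 ratio was 0.41, 2.23 and 2.33 in wild-type replicates 1, 2 and 3, and 1.64, 0.34 and 0.27 in Tg+ replicates 1, 2 and 3. The 3 low values were those of the 3 weak arrays, so the groups overlapped. The difference was -0.90 ± 0.39 (SE, n = 3 and 3, limma adjusted p = 0.164), -0.64 within the arrays of stronger signal and -0.10 within the weak arrays. Below the sham site the ratios ran from 2.24 to 2.55 in wild type and from 2.22 to 2.40 in Tg+. A second Trim63 probe was not well above background on any of the 6 arrays. Whether either probe lies within the transgene's transcript is not given, so the genotype rests on the labels alone.

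In the Tg+ arrays below the ligation, the lower calls included genes of mitochondrial energy metabolism. The higher calls included 2 nuclear long non-coding RNAs, actin regulators and 1 of 25 monocyte and macrophage markers. No list of actin regulators was made. In all, 316 features were called, 2.77% of those tested. Of these, 132 were higher in Tg+ (1.16% of those tested) and 184 lower (1.61%), and 2840 had an unadjusted p under 0.05. The median size of a called difference was 0.64. The groups did not overlap for 233 of the called features, 2.04% of the 11400 measured on all 6 arrays. Without regard to calls, values did not overlap for 11% of features, 5.21% with Tg+ higher and 5.79% with Tg+ lower.

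These calls rest on a spread shared by all 24 arrays. The median SD within a group was 0.216 in wild type and 0.162 in Tg+ below the ligation after I/R, against 0.0747 to 0.1 in the 4 sham groups. With the spread taken from the 12 I/R arrays alone, 0 features were called (1393 at an unadjusted p under 0.05), and from the 6 arrays alone, 0 were called (711 at an unadjusted p under 0.05). Every gene named below as called loses its call in both fits. Leaving out wild-type replicate 1 raised the count to 5226 and leaving out Tg+ replicate 1 raised it to 1897, whereas it was 4 without wild-type replicate 2, 16 without wild-type replicate 3, 4 without Tg+ replicate 2 and 5 without Tg+ replicate 3. With weak signal as a term in the model, 320 features were called (2.8% of those tested), 124 higher (1.09%) and 196 lower (1.72%), and 246 of them were among the 316 with the same direction.

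**Figure D1:**
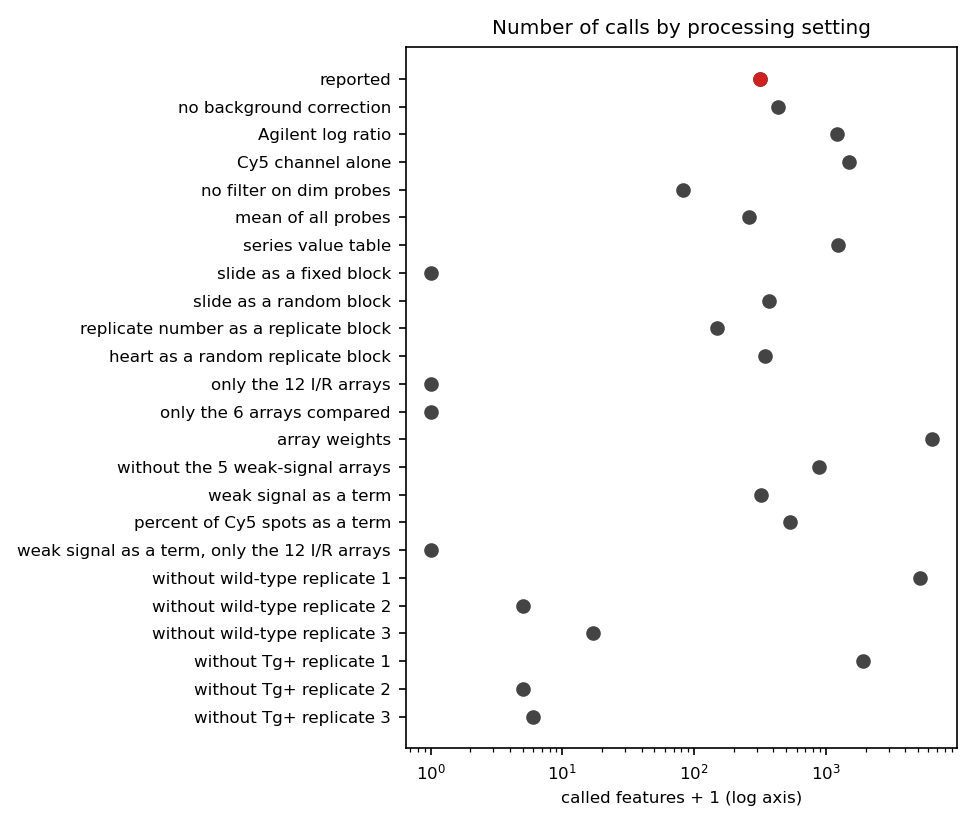
Number of features called as different between Tg+ and wild type below the ligation after I/R (x axis, called features plus 1, log axis) under the reported setting (red) and each alternative (grey). The count was 316 as reported and ranged from 0 to 6384. The fit without the 5 weak arrays leaves only Tg+ replicate 1 in its group.

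Genes of the TCA cycle and ketone use were called in 1 direction, lower in Tg+. Of the 23 genes listed, all 23 were tested, 10 were called lower (43.5%, against 1.61% of all features) and 0 higher, and all 23 differences were below 0, with a median of -0.83 against 0.01 over all features. The mean log2 ratio over the list was 1.48, 1.49 and 1.42 in wild-type replicates 1, 2 and 3, and 1.15, 0.58 and 0.37 in Tg+ replicates 1, 2 and 3. Every Tg+ array lay below every wild-type array, and the gap was widest for the weak Tg+ arrays. The median was -0.33 within the arrays of stronger signal and -1.12 within the weak arrays. Without wild-type replicate 2, Tg+ replicate 2 or Tg+ replicate 3, 0 members were called, and 2 were called without wild-type replicate 3.

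Sdhb, the iron-sulfur subunit of succinate dehydrogenase, had log2 ratios of 1.33, 2.01 and 2.17 in wild type, against 1.29, -0.20 and -0.64 in Tg+. The groups did not overlap, but Tg+ replicate 1 and wild-type replicate 1 were 0.04 apart. The difference was -1.68 ± 0.32, a 3.22-fold lower ratio (adjusted p = 0.0182), and it was -0.80 within the arrays of stronger signal and -1.75 within the weak arrays. Got1, the cytosolic aspartate aminotransferase of the malate-aspartate shuttle, read 2.21, 2.43 and 2.26 in wild type and 1.72, 0.66 and 0.51 in Tg+. All 3 Tg+ values lay under all wild-type values, and the difference was -1.34 ± 0.22 (adjusted p = 0.00943), with -0.62 and -1.63 within the arrays of stronger and weak signal. Dld, the lipoamide dehydrogenase shared by the pyruvate and oxoglutarate dehydrogenase complexes, differed by -1.09 ± 0.25, and Sucla2, a subunit of succinyl-CoA ligase, by -1.06 ± 0.19. For Dld the values within the arrays of stronger and weak signal were -0.55 and -1.15, and for Sucla2 -0.33 and -1.60. Idh3b, a subunit of NAD-dependent isocitrate dehydrogenase, differed by -1.14 ± 0.28, with overlapping groups. The other called members, named after their values were seen, were Suclg1, Idh3a, Fh1, Sdhc and Sdhd, between -0.98 and -0.59. Sdha, the flavoprotein subunit of succinate dehydrogenase, was not called at -1.28 ± 0.36 (adjusted p = 0.0620).

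Pyruvate enters the cycle through a mitochondrial carrier and the pyruvate dehydrogenase complex. Pdhb, the E1 beta subunit of pyruvate dehydrogenase, had log2 ratios of 1.45, 1.79 and 1.82 in wild type, against 0.92, 0.03 and -0.10 in Tg+. The groups were 0.53 apart at their nearest arrays. The difference was -1.41 ± 0.19, 2.65-fold lower (adjusted p = 0.00224), with -0.89 within the arrays of stronger signal and -1.49 within the weak arrays. Pdhb stayed past the threshold in each of the 6 fits that left out 1 array, with a largest adjusted p of 0.0241. Dlat, the E2 subunit of the same complex, differed by -0.80 ± 0.19, with overlapping groups. Mpc1, a subunit of the mitochondrial pyruvate carrier, differed by -1.28 ± 0.25 (-0.53 and -1.85 within the arrays of stronger and weak signal). Within the glucose use list, 4 of 27 members were called, all lower (14.8%, against 1.61% of all features). They were Pdhb, Dlat, the lactate dehydrogenase subunit Ldhb (-0.78 ± 0.20) and the glycolytic enzyme Gapdh (-0.53 ± 0.14). The list's median was -0.12, and 11 of its members were above 0.

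**Figure D2:**
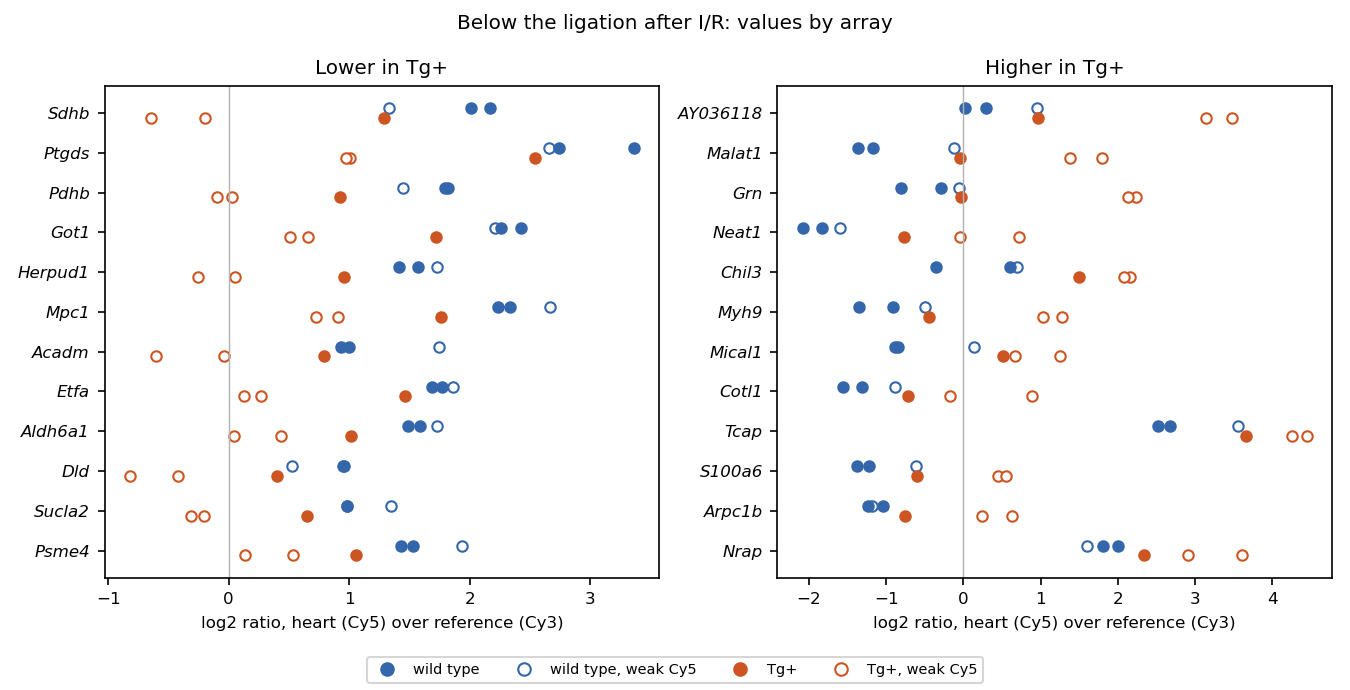
Log2 ratio of heart to reference (x axis) on each of the 6 arrays for the 12 called genes with the largest lower and the 12 with the largest higher differences whose groups do not overlap; blue is wild type, orange is Tg+, and open symbols are the weak arrays. The filled orange symbol of Tg+ replicate 1 is the Tg+ value nearest to wild type for each of these genes, as for Sdhb at 1.29 against 1.33.

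Fatty acid oxidation genes were called in both directions, most of them lower. Of 36 tested genes of fatty acid oxidation and of targets of the fatty acid sensor PPAR, 5 were called lower and 1 higher (16.7% in either direction, against 2.77% of all features), with a median of -0.42. Acadm, the medium-chain acyl-CoA dehydrogenase, read 1.75, 1.00 and 0.93 in wild type, against 0.80, -0.04 and -0.60 in Tg+. The Tg+ values lay below the wild-type values by at least 0.14. The difference was -1.18 ± 0.29 (adjusted p = 0.0380), and it was -0.17 within the arrays of stronger signal against -2.07 within the weak arrays. Etfa and Etfdh, which pass electrons from these dehydrogenases to the respiratory chain, differed by -1.15 ± 0.22 and -0.91 ± 0.21, and Hadhb, a subunit of the trifunctional protein, by -1.01 ± 0.24. Within the arrays of stronger signal these 3 differed by -0.27, -0.26 and -0.12, and within the weak arrays by -1.66, -1.38 and -1.60. Cpt1b, the muscle carnitine palmitoyltransferase that admits long-chain fatty acids, was the member called higher, at 0.64 ± 0.15, and was named after its value was seen. The median of the list was 0.03 within the arrays of stronger signal and -0.52 within the weak arrays. Of its 36 differences, 28 were below 0. The list's mean log2 ratio was 1.48, 1.27 and 1.19 in wild type and 1.33, 0.764 and 0.755 in Tg+, with overlap. Aldh6a1, a mitochondrial enzyme of valine breakdown, was lower by -1.10 ± 0.20.

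The respiratory chain and ATP synthase list had 5 of 42 genes called lower (11.9%, against 1.61% of all features) and 0 higher, with a median of -0.29. Its mean log2 ratio was 2.87, 1.86 and 1.87 in wild type and 1.79, 2.05 and 1.75 in Tg+, so the groups overlapped and wild-type replicate 1 stood alone above the rest. The median was -0.02 within the arrays of stronger signal and -0.82 within the weak arrays. Without wild-type replicate 1 the median was 0.05, with 5 members called higher and 11 lower, so the direction of the list rests on that array. Of the complex I subunits, Ndufa10 differed by -1.17 ± 0.26, Ndufs8 by -1.09 ± 0.24, Ndufs1 by -0.999 ± 0.21 and Ndufv2 by -0.94 ± 0.23. The groups overlapped for Ndufa10, Ndufs8 and Ndufv2 and did not for Ndufs1, and Ndufs8 was well above background on only 2 Tg+ arrays. Slc25a3, the mitochondrial phosphate carrier, read 0.07, 0.95 and 0.97 in wild type and 0.24, -1.12 and -1.76 in Tg+; it was called at -1.55 ± 0.36 although wild-type replicate 1 lay below Tg+ replicate 1. Among 39 genes of the mitochondrial ribosome and mitochondrial gene expression, 1 was called (2.56%, close to the 2.77% of all features). It was the ribosomal protein Mrpl3, lower by -0.81 ± 0.19. Mrpl3 was also called above the ligation, where it differed by -0.98 (adjusted p = 0.0283).

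Creatine kinases buffer ATP in muscle. Of 10 tested creatine and adenylate kinase genes, 3 were called lower (30.0%, against 1.61% of all features) and 0 higher, with a median of -0.35. The list's mean log2 ratio was 0.29, 0.22 and 0.21 in wild type and -0.0012, 0.02 and -0.13 in Tg+, without overlap. Ckm, the muscle creatine kinase, differed by -0.90 ± 0.21 with overlapping groups, Ckmt2, the mitochondrial creatine kinase of the sarcomere, by -0.63 ± 0.17 and the creatine transporter Slc6a8 by -0.60 ± 0.16. Ckm was also the 1 member called of 10 ventricular cardiomyocyte markers (10%, against 1.61% of all features called lower), whose median was -0.55. The per-array means of those markers were 1.55, 1.98 and 1.81 in wild type and 1.88, 1.53 and 1.20 in Tg+, so they overlapped. Of the 10 markers, 9 had differences below 0. The markers' median was -0.47 within the arrays of stronger signal, against -0.33 for the TCA cycle list. Within the weak arrays it was -0.15, against -1.12 for the TCA cycle list. The part of cardiomyocyte content in the metabolic differences was not tested.

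**Figure D3:**
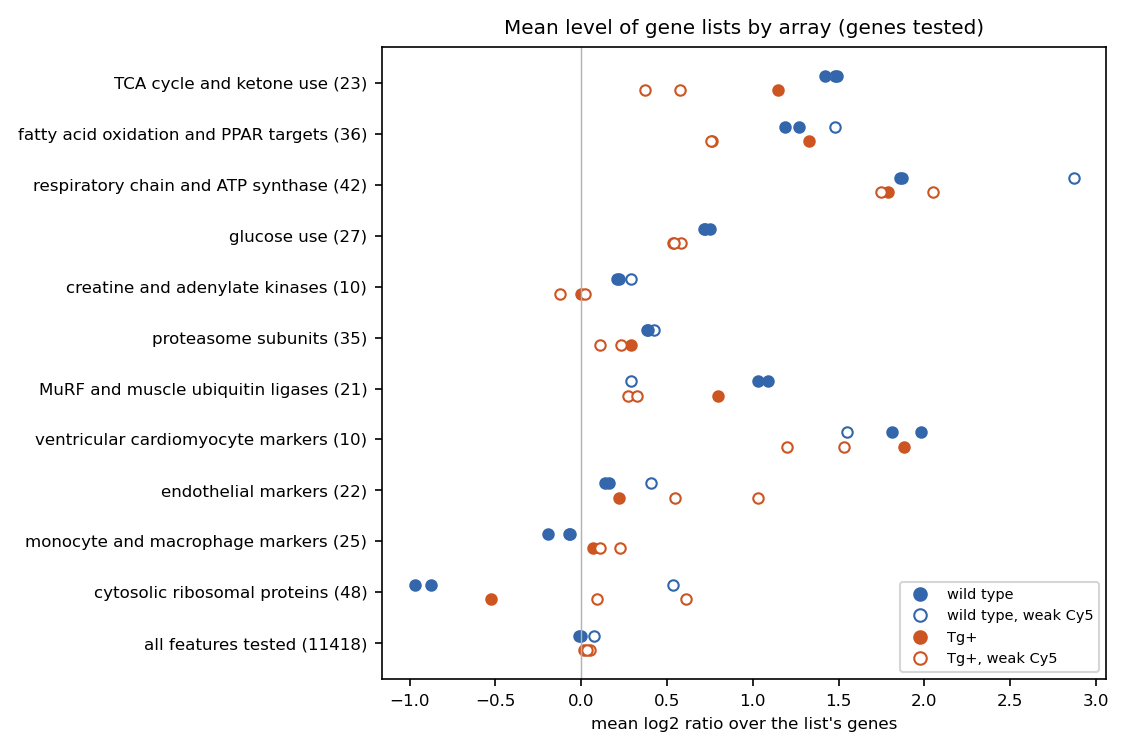
Mean log2 ratio of heart to reference (x axis) over the genes of each list on the 6 arrays, with the number of genes tested in parentheses; blue is wild type, orange is Tg+, and open symbols are the weak arrays. The TCA cycle list separates the groups (lowest wild type 1.42, highest Tg+ 1.15), and the cytosolic ribosomal list separates the weak arrays from the others in both groups.

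Promoters of lower genes were searched because these genes moved together, and those of Etfdh, Mrpl3, Psme4 and Pdhb are shown. The RefSeq promoter table (GRCm38.p6) held 150 of the 184 lower genes, with 171 promoters, and only the 250 bases before the start site were searched, on both strands. CGCATGCG, the core of the letters bound by NRF1, a regulator of nuclear genes for mitochondria, stood in 11 promoters of lower genes (6.43%), in 5 of 112 promoters of higher genes (4.46%), in 2.93% of promoters of all genes tested and in 1.55% of all 32851 promoters. With a further G before and C after it, the run stood in 8 (4.68%), in 3 (2.68%), in 1.46% and in 0.782%; the longer run was searched first and the core was chosen after its counts were seen. CCGGAAGTG, the letters bound by GABPA, another such regulator, stood in 9 (5.26%), in 3 (2.68%), in 2.92% and in 1.44%. TCAAGGTCA, the letters bound by the estrogen-related receptors, stood in 0 promoters of lower genes, in 1 of higher genes and in 0.244% of those of all genes tested. None of these runs stood in the 8 promoters matched to the called TCA cycle genes. A match describes letters and not a bound site. In the sequences below, capitals mark NRF1 letters in Etfdh and GABPA letters in Mrpl3 and Psme4, and Pdhb held no match. Apart from Pdhb, a promoter was shown only if it held a match. The sequences therefore do not show how common matches were. Etfdh lies at chr3:79628768-79629017 on the minus strand, Mrpl3 at chr9:105053018-105053267 on the plus strand, Psme4 at chr11:30771525-30771774 on the plus strand and Pdhb at chr14:8172993-8173242 on the minus strand.
Etfdh: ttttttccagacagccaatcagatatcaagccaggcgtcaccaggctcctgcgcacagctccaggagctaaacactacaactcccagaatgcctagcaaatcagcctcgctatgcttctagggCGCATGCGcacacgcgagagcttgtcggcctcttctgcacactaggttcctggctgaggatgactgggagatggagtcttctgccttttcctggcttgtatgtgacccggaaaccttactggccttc
Mrpl3: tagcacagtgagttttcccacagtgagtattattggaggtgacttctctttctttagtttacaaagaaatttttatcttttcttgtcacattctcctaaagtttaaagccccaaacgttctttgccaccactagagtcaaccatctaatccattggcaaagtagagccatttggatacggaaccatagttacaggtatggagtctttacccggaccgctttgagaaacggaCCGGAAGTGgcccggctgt
Psme4: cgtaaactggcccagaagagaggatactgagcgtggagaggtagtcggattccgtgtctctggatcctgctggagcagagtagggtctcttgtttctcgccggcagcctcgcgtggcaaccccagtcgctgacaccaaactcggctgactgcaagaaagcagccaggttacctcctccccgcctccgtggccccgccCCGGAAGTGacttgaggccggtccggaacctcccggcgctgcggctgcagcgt
Pdhb: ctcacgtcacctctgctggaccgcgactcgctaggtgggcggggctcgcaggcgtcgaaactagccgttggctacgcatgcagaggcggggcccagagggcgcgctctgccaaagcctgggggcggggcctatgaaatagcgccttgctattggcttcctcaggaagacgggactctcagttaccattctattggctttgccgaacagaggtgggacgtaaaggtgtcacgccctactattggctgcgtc

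The proteasome degrades proteins that carry ubiquitin. Of 35 tested proteasome subunits and activators, 4 were called lower (11.4%, against 1.61% of all features) and 0 higher, with a median of -0.22, and the list's mean was 0.42, 0.38 and 0.39 in wild type and 0.29, 0.23 and 0.11 in Tg+, without overlap. Psme4, the proteasome activator PA200, read 1.93, 1.43 and 1.53 in wild type and 1.06, 0.54 and 0.13 in Tg+, a difference of -1.06 ± 0.19 (adjusted p = 0.0126), with -0.42 and -1.60 within the arrays of stronger and weak signal; its 3 probes ran from -1.06 to -0.31. The 20S core subunits Psma6, Psma3 and Psma4 differed by -0.72 ± 0.19, -0.72 ± 0.19 and -0.40 ± 0.10. Without wild-type replicate 2, Tg+ replicate 2 or Tg+ replicate 3, 0 genes of the fatty acid, respiratory chain, creatine kinase and proteasome lists were called, and without wild-type replicate 3 the count was 0, 1, 0 and 1. Of 21 muscle ubiquitin ligase genes, 1 was called higher and 1 lower (9.52% in either direction, against 2.77% of all features). Trim55, which encodes MuRF2, read -0.06, -0.52 and -0.997 in wild type and -0.10, 0.57 and 1.13 in Tg+, a difference of 1.06 ± 0.24 with overlapping groups (adjusted p = 0.0323). Asb11, a substrate receptor of a ubiquitin ligase, differed by -1.60 ± 0.40, also with overlapping groups. Herpud1, a component of endoplasmic reticulum protein degradation, was lower by -1.32 ± 0.27. It was the 1 call among 25 genes of endoplasmic reticulum stress (4%, against 2.77% of all features).

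Of the chaperones, 2 of 25 were called higher and 2 lower (16% in either direction, against 2.77% of all features). The co-chaperone Dnajb4 and the mitochondrial chaperonin Hspe1 were lower by -0.85 ± 0.19 and -0.63 ± 0.17. The heat shock factor Hsf1 was higher by 0.45 ± 0.12, although its groups overlapped and its 3 probes ran from -0.22 to 0.45. Hspb2, a small heat shock protein of muscle, was higher by 0.76 ± 0.20, but its 2 probes gave -0.37 and 0.76. Antioxidant genes had 3 of 30 called, all lower (10%, against 1.61% of all features). They were the microsomal glutathione transferase Mgst1 (-0.84 ± 0.16) and the peroxiredoxins Prdx1 (-0.69 ± 0.17) and Prdx3 (-0.64 ± 0.16, with overlapping groups).

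Sarcomere genes had calls in both directions. Tcap, the titin cap of the Z-disc, read 3.56, 2.68 and 2.52 in wild type and 3.66, 4.26 and 4.45 in Tg+, a difference of 1.20 ± 0.27 (adjusted p = 0.0289). Nrap, which takes part in myofibril assembly, read 1.60, 2.01 and 1.81 in wild type and 2.35, 2.91 and 3.61 in Tg+, a difference of 1.15 ± 0.25. For both genes every Tg+ array lay above every wild-type array. Myoz2, a Z-disc protein that binds calcineurin, was lower by -0.85 ± 0.22, and Unc45b, a myosin chaperone, by -0.62 ± 0.17, both with overlapping groups. These were 2 of 22 Z-disc genes, 1 of 17 thin filament genes and 1 of 13 thick filament genes. The shares were 9.09%, 5.88% and 7.69%, against 2.77% of all features in either direction. Of 20 genes of sarcoplasmic reticulum calcium handling 0 were called, but 17 differences were below 0, against 5554 of all 11418 features. The list's median was -0.325, with -0.127 within the arrays of stronger signal and -0.0482 within the weak arrays. Pln, the calcium pump inhibitor phospholamban, read 2.07, 4.56 and 4.99 in wild type and 3.78, 0.73 and 1.01 in Tg+, low in the 3 weak arrays of both groups, with a difference of -2.03 ± 0.69 (adjusted p = 0.0967). Abcc9, the regulatory subunit of the ATP-sensitive potassium channel, was lower by -0.83 ± 0.20, with overlapping groups. It was the 1 call among 19 ion channel genes (5.26%) and among 15 smooth muscle and pericyte markers (6.67%), against 2.77% of all features. The ion channel list had a median of -0.376, with 16 of its 19 differences below 0.

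The nuclear RNAs Malat1 and Neat1 were among the largest higher values. Malat1 read -0.11, -1.17 and -1.36 in wild type and -0.04, 1.39 and 1.79 in Tg+, and the difference was 1.93 ± 0.40, 3.81-fold (adjusted p = 0.0239), with 1.23 and 1.71 within the arrays of stronger and weak signal and 0.85 to 1.93 over its 4 probes. Its wild-type replicate 1 and Tg+ replicate 1 were 0.07 apart. Neat1 read -1.60, -1.82 and -2.08 in wild type and -0.76, -0.04 and 0.72 in Tg+, and the difference was 1.81 ± 0.30 (adjusted p = 0.0117), with 1.19 within the arrays of stronger signal and 1.94 within the weak arrays. These were 2 of 4 tested RNAs that serve as signs of nuclear RNA or RNA quality, against a background of 1.16% called higher, and both also had the same sign above the ligation (0.35 and 0.28, not called). Their part in the differences of the mitochondrial genes was not tested. AY036118 was the largest named higher call at 2.11 ± 0.51, with 0.95, 0.30 and 0.02 in wild type, against 0.97, 3.14 and 3.48 in Tg+. The nearest arrays of its groups, wild-type replicate 1 and Tg+ replicate 1, were 0.01 apart.

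Other large higher calls included genes of the cytoskeleton. No list was made for these, so no share called can be set beside the 1.16% of all features called higher. Myh9, the non-muscle myosin heavy chain, differed by 1.54 ± 0.33, Cotl1, which binds actin filaments, by 1.25 ± 0.32, Arpc1b, a subunit of the Arp2/3 actin nucleator, by 1.19 ± 0.28, and S100a6, a calcium-binding protein, by 1.20 ± 0.27. For these 4 genes Tg+ replicates 2 and 3 were high, and Tg+ replicate 1 lay between 0.01 and 0.28 above the highest wild-type value. Mical1, which oxidises actin, read 0.13, -0.84 and -0.89 in wild type and 0.51, 0.67 and 1.25 in Tg+, with a difference of 1.34 ± 0.23 that was 1.37 within the arrays of stronger signal and 0.83 within the weak arrays. Vim, the mesenchymal filament vimentin (1.30 ± 0.33), Rhoc, a small GTPase (1.30 ± 0.33), and Clic1 (1.48 ± 0.34) were called with overlapping groups.

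Of 25 monocyte and macrophage markers 1 was called, and it was higher (4%, against 2.77% of all features in either direction). Chil3, a chitinase-like protein of macrophages, read 0.69, 0.60 and -0.35 in wild type and 1.498, 2.16 and 2.08 in Tg+, above every wild-type array by 0.81 or more. The difference was 1.60 ± 0.35, 3.04-fold (adjusted p = 0.0269), with 1.38 and 1.43 within the arrays of stronger and weak signal. Below the sham site Chil3 lay at a mean of -2.28 in wild type and -2.09 in Tg+, and above the ligation the genotypes differed by 0.04. The macrophage list had a median of 0.23, and its means were -0.06, -0.07 and -0.20 in wild type and 0.07, 0.23 and 0.11 in Tg+. Grn, the growth factor progranulin, differed by 1.84 ± 0.45, with wild-type replicate 1 and Tg+ replicate 1 at -0.05 and -0.03, but its other probe differed by 0.02.

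**Figure D4:**
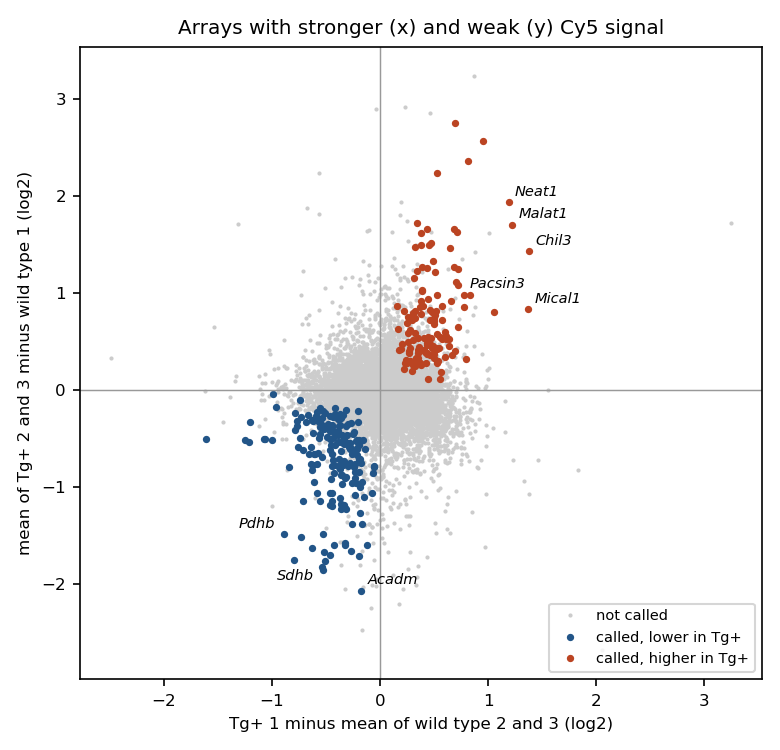
Each point is a gene: the Tg+ minus wild-type log2 difference within the arrays of stronger signal (x axis) against that within the weak arrays (y axis), with called genes in colour. All 315 called features with both values have the same sign on both axes, which the call itself favours, and differences such as that of Acadm (-0.17 and -2.07) are far larger on the weak arrays.

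No call was made among the other cell type and stress lists. Of 22 genes of the JNK pathway and AP-1, 0 were called and the median was 0.06; Mapk8ip3, a JNK scaffold, differed by 0.40 ± 0.12 (adjusted p = 0.0762) and Junb by 0.62 ± 0.24. Also 0 were called of 18 other immediate early genes, 25 apoptosis genes, 20 cytokine and adhesion genes, 10 neutrophil markers, 30 interferon response genes, 21 hypoxia genes, 20 glucocorticoid response genes and 14 clock genes. Nor was any call made of 22 endothelial, 18 fibroblast, 13 atrial cardiomyocyte, 10 adipocyte, 8 nerve, 7 epicardial, 3 erythroid markers or the 1 lymphocyte marker tested, nor of 36 matrix, 23 cardiac stress and 5 Sprr2 genes. Most non-muscle markers had differences above 0: 17 of 18 fibroblast (median 0.47), 34 of 36 matrix (0.31), 19 of 22 endothelial (0.37), 7 of 7 epicardial and 8 of 8 nerve genes, against 5864 of all 11418 features. The fibroblast mean was -0.56, -1.93 and -1.82 in wild type and -1.52, -0.46 and -0.78 in Tg+, higher on the weak arrays of either label, and within the weak arrays the median was -0.10. For matrix, epicardial, nerve and endothelial genes the medians within the weak arrays were -0.19, -0.07, -0.12 and 0.39. Within the arrays of stronger signal they were 0.20, 0.38, 0.34 and 0.04. The endothelial mean was 0.41, 0.14 and 0.16 in wild type and 0.22, 0.55 and 1.03 in Tg+, with overlap. Their part in the differences of the other genes was not tested. Bnip3, a mitophagy receptor, differed by -1.18 ± 0.35 (adjusted p = 0.0733). Nppa, the atrial natriuretic peptide, read 1.26, 2.77 and 2.79 in wild type and 3.65, 4.51 and 4.49 in Tg+, so every Tg+ array lay above every wild-type array, with a difference of 1.94 ± 0.63 that did not pass (adjusted p = 0.0880); its 2 probes gave 0.53 and 1.94. Timp1, a metalloproteinase inhibitor, read 0.50, 2.02 and 1.62 in wild type and 1.78, 3.30 and 3.49 in Tg+ and did not pass either (1.48 ± 0.43, adjusted p = 0.0695); its 3 probes ran from -0.09 to 1.48. Over 48 cytosolic ribosomal protein genes the mean was 0.54, -0.97 and -0.88 in wild type and -0.53, 0.61 and 0.09 in Tg+, higher on the weak arrays of either label. Of 21 cell cycle genes the kinase Plk2 was called, higher by 0.74 ± 0.16 (4.76% of the list, against 2.77% of all features).

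A few smaller differences kept their calls whichever of the 6 arrays was left out. Pacsin3, a membrane-shaping protein of endocytosis, read 1.05, 0.88 and 0.86 in wild type and 1.64, 2.10 and 1.97 in Tg+. Its difference was 0.97 ± 0.12, 1.96-fold, with the smallest adjusted p of all features (0.00116). Cstad read -0.27, -0.21 and -0.23 in wild type and 0.42, 0.23 and 0.28 in Tg+, a difference of 0.54 ± 0.07 (adjusted p = 0.00224); it was well above background on 2 of 3 arrays of each group. Ap1s1, a subunit of the AP-1 clathrin adaptor, read -0.35, -0.47 and -0.45 in wild type and 0.07, 0.83 and 0.43 in Tg+, a difference of 0.87 ± 0.12 (adjusted p = 0.00258). In these 3 genes every Tg+ array was above every wild-type array and the spread within wild type was small. With Pdhb they were the 4 of 316 called features that passed in all 6 fits that left out 1 array. Ptgds, a prostaglandin D synthase, was lower by -1.42 ± 0.32, and its sham difference was -0.66, not called. Txlnb and Yipf7 were called lower by -1.64 ± 0.39 and -1.30 ± 0.33 with overlapping groups.

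The same genotype comparison was set beside that in sham hearts. In the piece below the sham site 3 features were called (0.0263% of those tested), and 0 of the 316 were among them. Over the 184 lower calls the median genotype difference in sham was -0.01, and over the 132 higher calls it was -0.000883. Pdhb differed by 0.06 in sham, Sdhb by 0.07, Got1 by 0.06, Malat1 by -0.08 and Chil3 by 0.18. A test of the difference between I/R and sham called 2 features, 0.0175% of those tested (1196 at an unadjusted p under 0.05), and both were small proline-rich genes that were high in Tg+ sham hearts. Sprr2b lay between 1.13 and 1.48 in Tg+ sham, between -0.21 and -0.18 in wild-type sham, and between -0.39 and 0.07 on the 6 I/R arrays, and the interaction was -1.25 ± 0.13 (adjusted p = 0.000189). Sprr2k behaved alike in sham (0.85 to 0.96 in Tg+, -0.0005 to 0.09 in wild type), with an interaction of -0.86 ± 0.11 (adjusted p = 0.000780). After I/R below the ligation, each of the 2 genes was well above background on only 2 wild-type arrays and 1 Tg+ array. Sprr2 genes are near-identical copies, so their probes may share signal. For the metabolic genes the interaction did not pass: it was -1.46 ± 0.27 for Pdhb (adjusted p = 0.104) and -1.75 ± 0.46 for Sdhb (adjusted p = 0.285). The difference between I/R and sham within each genotype shares these arrays. For Pdhb it was -0.35 in wild type (limma adjusted p = 0.310) and -1.81 in Tg+ (adjusted p = 8.8e-06). Pdhb was chosen for its low values on these Tg+ arrays, so the last p is not a separate test. No sham array was weak, whereas Tg+ replicates 2 and 3 after I/R were. Over all features, calls between I/R and sham in Tg+ went from 3701 to 1510 with weak signal as a term.

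Above the ligation after I/R, 75 features were called between the genotypes (0.657% of those tested). The 2 pieces came from the same hearts. Of the features called above, 11 were also called below with the same direction, which is 3.48% of the 316 and 14.7% of the 75. The median difference above was -0.23 over the genes lower below and 0.12 over the genes higher below. Pdhb differed by -0.19 above, Sdhb by -0.52, Got1 by -0.30 and Etfa by -0.69, none called. A test of the difference between pieces called 0 features with limma (2070 at an unadjusted p under 0.05). The 3 smallest p values belonged to Ap1s1 (0.93 ± 0.17 more below than above), Ddx42, an RNA helicase (0.71 ± 0.13), and Ino80e, a subunit of a chromatin remodeller (0.56 ± 0.11), each with an adjusted p of 0.166.

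**Figure D5:**
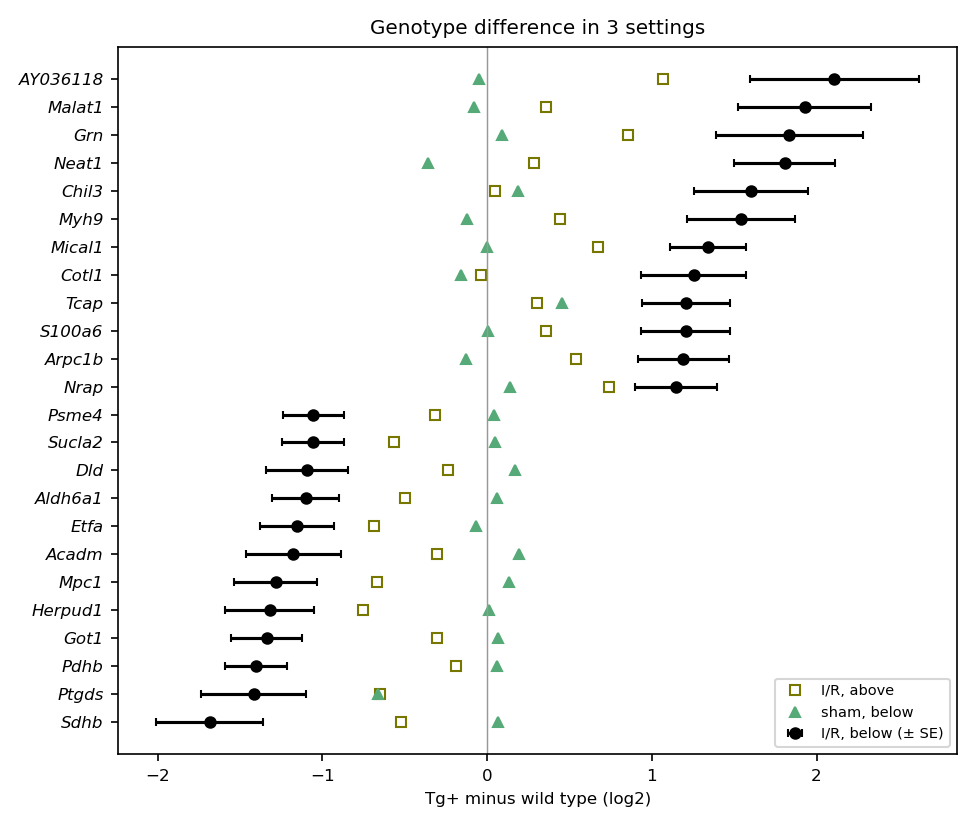
Tg+ minus wild-type log2 difference (x axis) for the 24 genes of the plot of values by array, below the ligation after I/R (black, with SE), above it after I/R (open squares) and below the site in sham hearts (triangles). Sham values lie near 0 for most of these genes, as for Pdhb at 0.06, and the values above the ligation mostly lie between the other 2, as for Etfa at -0.69 against -1.15 below.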

How the data were processed

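Heart RNA was measured on 24 Agilent mouse arrays of 2 colours, spread over 7 slides and read with Feature Extraction 9.5.3.1, per the file headers. The label fields give Cy5 to the heart and Cy3 to the pup reference, while the labelling protocol names Cy3 only; direction was taken from the label fields. The deposited scanner files hold spot intensity and a log10 ratio, the latter background-subtracted and dye-normalised by the authors' scanner software, per the file headers. The deposited series table holds log2 values that matched the scanner's ratios with a correlation and slope of 1 on every array.

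Spot intensities were corrected with normexp (offset 50) and loess within arrays (limma 3.58.1, R 4.3.3), with control spots and outliers at weight 0. Of 41174 probes, 15412 were well above background in Cy5 on all 3 arrays of a group, and the brightest probe stood for each of 11418 features. Updated symbols came from RefSeq for 23082 probes by accession and 3073 by older symbol. All 24 arrays entered 1 model with 8 groups and 16 residual degrees of freedom. Sets of 3 hearts are separate animals, per the labels. The genes named were Trim63, the 12 largest called differences each way with non-overlapping groups that kept their direction with weak signal as a term, the 4 largest each way with overlapping groups, up to 4 called or 2 uncalled members of each of 42 gene lists, the 6 smallest p values with weak signal as a term, and those called (or the 3 smallest p values) in each interaction; some genes the rule chose are not reported here. The comparison, the lists and the rule were chosen with earlier results of these data known. The number of arrays limits the precision.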

Additional observations from a re-analysis of the deposited data

Results flagged for a closer look

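Both features for which the genotype difference below the ligation was not the same after I/R and after sham surgery are listed here. For Sprr2b, Tg+ minus wild type was smaller after I/R than in sham by -1.25 on the log2 scale, and for Sprr2k by -0.86, by limma's test of the interaction. In both genes the 3 Tg+ sham arrays were high, and the 6 I/R arrays were not. Of those I/R arrays, only 2 wild-type and 1 Tg+ array were well above background for either gene. Both calls were lost with the scanner's own ratios, the series table, the Cy5 channel alone and slide as a fixed block.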

How the results depend on the processing

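Counts of calls between Tg+ and wild type below the ligation after I/R moved from 316 to 1224 with the scanner's log ratio, 1500 with the Cy5 channel alone, 1225 with the series table, 82 without the filter on dim probes, 6384 with array weights, 882 without the 5 weak arrays (533 higher and 349 lower, 60.4% higher against 41.8%; 91 shared with the 316), 532 with the percent of Cy5 spots as a term, and 149 with the replicate number as a block. Array weights gave 53.2% higher, against 41.8% as reported. The count was 0 with slide as a fixed block (1002 at an unadjusted p under 0.05), with the 12 I/R arrays or the 6 arrays, and, in an alternative chosen after seeing the data, with weak signal as a term and the 12 I/R arrays alone (1353 at an unadjusted p under 0.05). Leaving out 1 array gave 4 to 5226. Deviations of same-numbered arrays correlated at -0.768, -0.755 and -0.292. Wild-type replicate 1 and Tg+ replicate 2, both weak, correlated at 0.777, and wild-type replicate 2 and Tg+ replicate 1, neither weak, at 0.725. The weak arrays had different replicate numbers in the 2 groups, so these values cannot show whether replicate numbers pair the samples.

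The interaction with surgery went from 2 calls to 0 with the scanner's ratio, the series table or slide as a fixed block, 4 with Cy5 alone (0 shared with the 2), 4 with the percent term, 5188 with array weights and 13 without the weak arrays; leaving out 1 array gave 2 to 2029. The interaction with piece went from 0 to 8 with the scanner's ratio or series table, 6 with Cy5 alone and 4811 with array weights. Its count also rose without the weak arrays, a fit that leaves Tg+ replicate 1 as the only Tg+ array below the ligation. Here leaving out 1 array gave 0 to 4171. The cause was not tested.

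Of the 105 genes for which alternatives were computed, 5 changed sign in some alternative fit. Sign changes within the weak arrays or within the arrays of stronger signal were counted for called genes only. Within the weak arrays Ltf read -0.3218 and Slc4a1 -0.5099, against 0.5432 and 0.2828 as reported. Hba-a1 read -0.1405 with Cy5 alone and -0.03034 with the series table. Ltf read -0.3937 with the scanner's ratio and the series table and -0.1052 with Cy5 alone. Timp1 read -0.0399 without the weak arrays, where Tg+ replicate 1 was the only Tg+ array left below the ligation. Slc4a1 read -0.1097 with the scanner's ratio and the series table, -0.06732 with weak signal as a term (24 or 12 arrays), -0.1404 with the percent term and -0.08887 to 0.8184 when 1 array was left out. Sprr2k read 0.02945 without background correction, 0.3581 with the scanner's ratio and the series table, 0.01291 with slide as a fixed block and -0.06585 to 0.01413 when 1 array was left out. With the heart as a random block, none of the 105 changed its call.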
